A study of Mus musculus with 2 samples.

Results

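The Zic genes encode a small family of zinc finger transcription factors, and 4 of them, *Zic1*, *Zic2*, *Zic4* and *Zic5*, were followed here through the septum and the telencephalic vesicle of the early mouse embryo. They were taken by symbol from the gene lists of 2 single cell RNA sequencing libraries, as 4 of 28001 listed features in the library of septal explants and 4 of 32286 in that of the telencephalic vesicle. Both were made with droplet kits that tag every captured transcript with its own identifier (UMI), and the deposited values are raw UMI counts per gene and cell barcode.

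The library of septal explants (kit v2) pooled 8 E11.5 embryos of genotype *PGKCre;Rosa26YFP* and 4 E12.5 embryos of genotype *Dbx1Cre;Rosa26tdTomato*, from 2 litters each. PGK drives Cre broadly, whereas Dbx1Cre marks the descendants of *Dbx1* cells with tdTomato. The library of the telencephalic vesicle (kit v3.1) pooled 3 wild-type embryos from 2 litters, given as E12 in the labels and as E11.5 to E12 in the study's methods. All mice are given as C57BL/6J, and embryos cannot be told apart within a library except through the reporters. Each condition thus has 1 library, and since cells of a pooled library do not replicate it, no significance test was made. Intervals are 95% intervals of counting error only (exact Poisson for UMIs, Clopper-Pearson for shares of cells).

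Zic proteins resemble the Gli factors of the hedgehog pathway in their zinc fingers. They are known for their part in the dorsal and medial neural tube, in the septum and cortical hem, in the medial origin of Cajal-Retzius cells, in the meninges and in the cerebellum. Loss of *ZIC2* is a known cause of holoprosencephaly, in which the forebrain does not divide along its midline. The genes lie as head-to-head pairs, and this arrangement is seen here in the mouse coordinates.

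*Zic1* (ENSMUSG00000032368) is found on chromosome 9 (GRCm38), on the minus strand at chr9:91358058-91365810, and *Zic4* (ENSMUSG00000036972) on the plus strand at chr9:91362413-91389348. Their annotated spans overlap by 3398 bases on opposite strands, and *Zic4* also contains 884 bases of Gm37477. *Zic5* (ENSMUSG00000041703) lies on the minus strand of chromosome 14, chr14:122456795-122465677, and *Zic2* (ENSMUSG00000061524) on its plus strand at chr14:122475435-122479852, 9757 bases away. The kits mark strand, and the study's methods give default Cell Ranger parameters for the septal explants. How strand was used in counting is not spelled out in the sources used here. The overlap holds the annotated 5′ ends of both *Zic1* and *Zic4*, and how reads in it were assigned was not tested. The 250 bases before the RefSeq starts of this pair (GRCm38.p6), the neighbours whose joint detection is described further on, are given 5′ to 3′ on the strand of each gene. The 2 starts lie 3203 bases apart, and that of *Zic4* falls inside the longer Ensembl gene. Capitals mark the motif GGGCGG and the motif CCAAT.
*Zic1*, chr9:91365769-91366018, minus strand: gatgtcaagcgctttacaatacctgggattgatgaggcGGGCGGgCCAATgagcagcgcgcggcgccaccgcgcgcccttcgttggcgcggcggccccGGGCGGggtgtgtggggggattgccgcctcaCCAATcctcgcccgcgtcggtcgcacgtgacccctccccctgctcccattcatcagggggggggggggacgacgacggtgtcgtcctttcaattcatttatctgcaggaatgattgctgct
*Zic4*, chr9:91368722-91368971, plus strand: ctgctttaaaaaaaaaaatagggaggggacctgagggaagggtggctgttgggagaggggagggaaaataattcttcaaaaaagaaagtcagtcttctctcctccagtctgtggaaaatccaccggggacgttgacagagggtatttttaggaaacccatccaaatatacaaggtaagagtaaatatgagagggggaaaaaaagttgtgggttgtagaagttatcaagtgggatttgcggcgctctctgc
Both strands were searched for the motif CCAAT, for GGGCGG motifs and for the motif TATAAA. The *Zic1* window is 66% G and C and holds CCAAT 2 times and GGGCGG 2 times, and the *Zic4* window, at 44.4%, holds none of the 3 motifs. The same holds for the *Zic5* window, at 62.4%. Among all 32851 windows of this length, 33.8% hold CCAAT, 32.7% GGGCGG and 12.4% TATAAA.

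After filtering, 5384 of 5827 barcodes of the septal explants were kept, with a median of 12868.5 UMIs, and 11758 of 14283 of the telencephalic vesicle, with a median of 9058.5. Total depth was 83103280 and 194821794 UMIs, and 1 barcode occurred in both libraries. Clusters were named from marker lists without use of the Zic genes, and apical progenitors (APs, which divide at the ventricle), basal progenitors (BPs), neurons and non-neural cells are called "-like" after those lists. There remained 2 unnamed clusters in each library, with 367 cells in the septal explants, of which 149 were led by macrophage genes, and 997 in the telencephalic vesicle, at a median of only 1091 UMIs. Levels are CPM, in which the summed UMIs of a gene are scaled to the total depth of the same cells. They were not compared between the libraries, which differ in kit, age, genotype and software.

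In the septal explants Zic UMIs were detected in nearly every cell, a count that does not separate expression from the free RNA described below. *Zic1* was found in 91.9% of 5384 cells (30523 UMIs, 393 CPM), *Zic4* in 75.3% (16692 UMIs, 215 CPM), *Zic5* in 55.1% (6071 UMIs, 78.2 CPM) and *Zic2* in 22.3% (1592 UMIs, 20.5 CPM). The telencephalic vesicle also holds lateral regions, and there *Zic1* was found in 42.6% of 11758 cells (28307 UMIs, 162 CPM), *Zic5* in 28.6% (11459 UMIs, 65.7 CPM), *Zic4* in 26.9% (14575 UMIs, 83.5 CPM) and *Zic2* in 23.3% (7204 UMIs, 41.3 CPM). A UMI total also holds how well each transcript is captured at its 3′ end, and the 4 genes are therefore set against each other only by their ratios between classes of the same library.

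Cells of blood type served as the reference for free RNA, and the part of doublets in their Zic UMIs was not tested. Among 400 erythroid-like cells of the telencephalic vesicle (median 5428.5 UMIs), 3.75% held *Zic1*, 2% *Zic4*, 0.75% *Zic2* and 0.5% *Zic5*, far below the neural cells (median 9639.5 UMIs) with 47.2%, 30.3%, 25.6% and 31.9%. The septal explants had only 26 erythroid-like cells, at a median of 29045.5 UMIs against 13137 in neural cells. They held *Zic1* in 69.2% and *Zic4* in 46.2%, with 3.15 *Zic1* UMIs per cell, and in them *Sox2*, a gene of neural progenitors, reached 31.5 CPM. Their 0.549 *Zic4* UMIs per *Zic1* UMI (interval 0.373 to 0.799) stood beside 0.547 over all kept cells. After each cell was thinned to 8000 UMIs, the erythroid-like cells held *Zic1* in 34.6%, *Zic4* in 30.8%, *Zic5* in 15.4% and *Zic2* in 3.85%. Shares at or below these values in the septal explants are not read as expression without another reference.

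**Figure D1:**
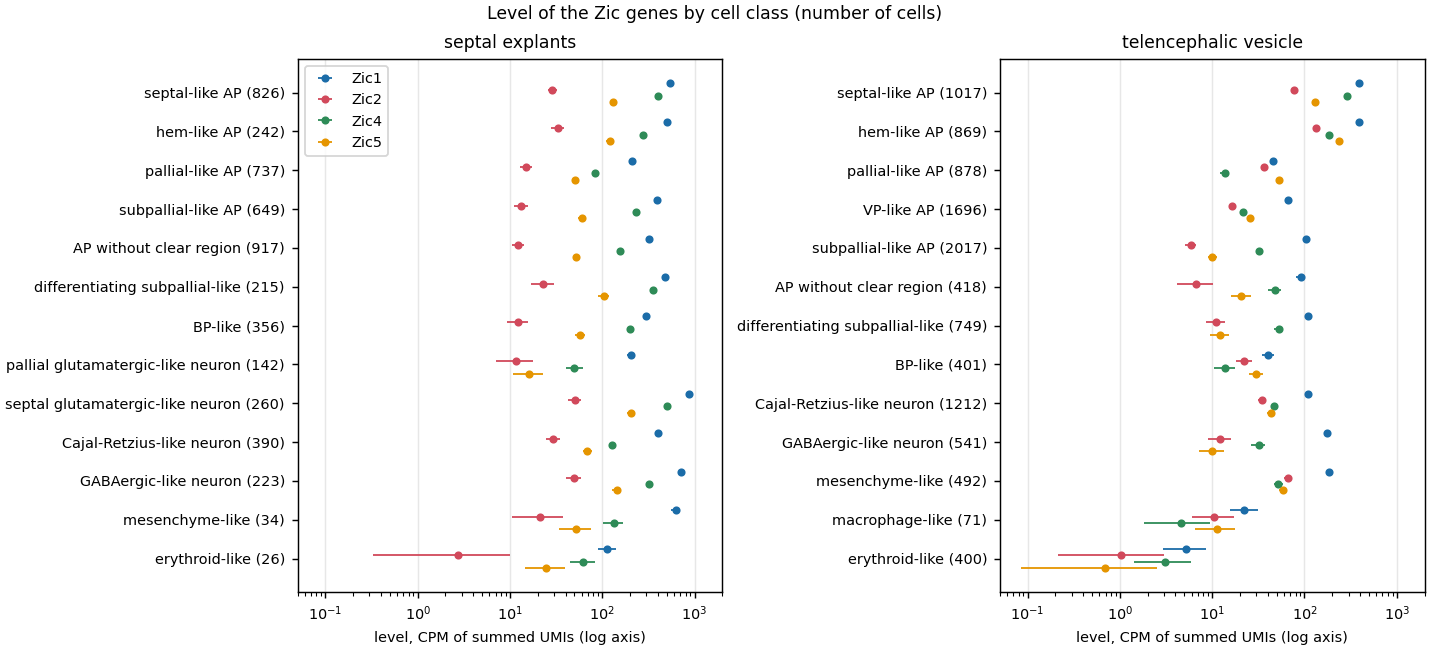
Level of *Zic1*, *Zic2*, *Zic4* and *Zic5* in each class of the septal explants (left) and the telencephalic vesicle (right), as CPM of summed UMIs on a log axis, with the number of cells in parentheses and bars for the 95% Poisson interval. *Zic1* ran from 112 to 876 CPM between classes of the septal explants and from 5.19 to 389 CPM in the telencephalic vesicle.

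Among the AP classes, all 4 genes were highest in the septal-like and hem-like APs of each library. The septal-like APs are the cells near the *Fgf8* and *Fgf17* source of the rostral midline, and the hem is the Wnt and Bmp source at its dorsal caudal end. *Zic1* reached 389 CPM in the telencephalic vesicle in both septal-like (1017 cells, interval 381 to 396) and hem-like APs (869 cells, 380 to 398). It stood at 103 CPM in subpallial-like APs (2017 cells, 99.5 to 107), at 66.9 CPM in ventral pallium (VP)-like APs (1696 cells, 64.1 to 69.8) and at 45.2 CPM in pallial-like APs (878 cells, 42.6 to 47.8). *Zic4* followed a steeper course, with 288 CPM in septal-like, 186 in hem-like, 32.1 in subpallial-like, 21.8 in VP-like and 13.7 CPM in pallial-like APs.

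*Zic2* and *Zic5* had another order in the same cells. *Zic2* was highest in the hem-like APs at 132 CPM, followed by septal-like (77.5), pallial-like (36.7), VP-like (16.6) and subpallial-like APs (5.83 CPM, 5.01 to 6.73). *Zic5* gave 236 CPM in hem-like, 129 in septal-like (interval 124 to 133), 52.9 in pallial-like, 26.0 in VP-like and 10.0 CPM in subpallial-like APs (8.95 to 11.2). Between subpallial-like and pallial-like APs, taken as whole classes, the pairs thus had opposite orders in this library. *Zic1* and *Zic4* were higher in the former and *Zic2* and *Zic5* in the latter, with no overlap of the intervals. This order was kept by all 4 genes in 10 of 10 other clusterings and namings. The VP-like class was below the pallial-like class for *Zic1* in 9 of these 10, the opposite of the order given here, so that the lowest class for *Zic1* was not fixed.

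The septal explants gave a narrower range, in which *Zic1* ran from 539 CPM in septal-like APs (826 cells, 526 to 553) through 502 in hem-like (242 cells, 482 to 524) and 387 in subpallial-like APs (649 cells, 375 to 400) down to 212 CPM in pallial-like APs (737 cells, 204 to 220). *Zic4* gave 398, 275, 234 and 82.4 CPM in the same order. *Zic5* gave 131, 120, 59.9 and 50.3 CPM, the intervals of the former pair (124 to 138 and 110 to 131) overlapping. Its subpallial-like level (55.1 to 65.0) lay above its pallial-like level (46.5 to 54.4), the opposite of its order in the telencephalic vesicle. With other clusterings the subpallial-like level fell to 39.1 CPM, below the lowest pallial-like level of 46.9 CPM, so that this order was not fixed. *Zic2* gave 28.8, 33.0, 13.2 and 14.9 CPM, and neither its septal-like and hem-like nor its subpallial-like and pallial-like values could be told apart by their intervals.

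The ratio of septal-like to pallial-like APs in the telencephalic vesicle was 8.61 for *Zic1* (interval 8.10 to 9.16), 21.0 for *Zic4*, 2.43 for *Zic5* and 2.11 for *Zic2*. All 4 thus passed a fold of 2, as did 7.42% of 13686 genes with at least 50 UMIs in these cells, whereas 1.97% were lower by that fold. The *Zic1* ratio depended on where clusters were cut, with 5.78 when genes were scaled before clustering, 4.91 at Leiden resolution 2.5 and 10.4 with Leiden run to convergence. Over 10 other clusterings and namings, *Zic4* gave 9.72 to 26.1, *Zic5* 2.11 to 2.79 and *Zic2* 1.82 to 2.499. Hem-like APs stood above pallial-like APs by 8.61 for *Zic1*, 13.6 for *Zic4*, 4.46 for *Zic5* and 3.58 for *Zic2*, where 9.42% of 13425 genes passed a fold of 2 and 3.59% were lower by it. The ranges over the other clusterings were 4.48 to 10.8, 4.25 to 17.8, 3.27 to 5.10 and 2.76 to 4.17.

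The same ratio of septal-like to pallial-like APs in the septal explants was 2.54 for *Zic1* (interval 2.43 to 2.66), 4.83 for *Zic4*, 2.60 for *Zic5* and 1.93 for *Zic2*. Of the 4 genes, 3 passed a fold of 2, against 7.86% of 11037 genes, and none was lower by it, against 2.67%. *Zic1* gave 1.86 to 2.65 over the other clusterings and *Zic2* 1.55 to 2.08, so that their side of this fold was not fixed. Hem-like against pallial-like APs gave 2.37, 3.33, 2.39 and 2.21 for *Zic1*, *Zic4*, *Zic5* and *Zic2*, all past a fold of 2, against 4.54% of 10302 genes higher and 1.55% lower by that fold. With other clusterings *Zic1* gave 1.95 to 2.38, *Zic5* 1.61 to 2.74 and *Zic2* 1.77 to 2.30, so that their side of this fold was not fixed here either, whereas *Zic4* gave 2.45 to 3.81. The share of free RNA in the pallial-like cells of this library was not tested.

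Clusters within a class were not alike. The septal-like APs of the telencephalic vesicle consisted of 465 cells led by *Fgf17*, *Fgf8* and *Pax5*, with 513 CPM *Zic1*, 447 *Zic4*, 198 *Zic5* and 106 CPM *Zic2*, and of 552 cells that carried *Etv4* and *Etv5*, with 328, 209, 94.6 and 63.5 CPM. All 4 genes were thus higher in the cells that expressed the Fgf ligands themselves. The VP-like APs were more diverse: 492 cells held *Zic1* at 18.3 CPM, 665 cells at 46.6 CPM, and 539 cells led by *Sfrp2*, *Gdf10* and *Foxb1* at 133 CPM. Over the 10 other clusterings and namings, the VP-like class as a whole gave 6.54 to 80.0 CPM *Zic1*. Among the subpallial-like APs, 1145 cells held *Zic1* at 133 CPM, 505 cells at 91.3 CPM and 367 cells at 35.0 CPM (30.4 to 40.2). These 367 cells lay below both pallial-like clusters for *Zic1* (44.7 and 49.4 CPM), against the order of the whole classes. Their *Zic4* was 11.9 CPM (9.27 to 15.1), against 13.2 and 18.3 CPM in the pallial-like clusters, with overlapping intervals. Hem-like cells of this library carried choroid plexus genes such as *Ttr* and *Folr1* among their leading genes. Where scaling of genes divided them, 313 choroid plexus-like cells held 520 CPM *Zic1*, 326 *Zic4*, 302 *Zic5* and 159 CPM *Zic2*.

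The ratio of *Zic4* to *Zic1* UMIs also differed between the regions. Septal-like APs gave 0.738 *Zic4* UMIs per *Zic1* UMI in the septal explants (interval 0.710 to 0.766) and 0.740 in the telencephalic vesicle (0.718 to 0.762). Hem-like APs gave 0.547 and 0.480, and pallial-like APs 0.389 and 0.303. With the clusters used here, the order septal, hem, pallium was thus found in each library without overlap of the intervals. In the telencephalic vesicle the place of the hem above the pallium was not fixed. Over the other clusterings and namings its hem-like to pallial-like ratio fell to 4.25 for *Zic4* but not below 4.48 for *Zic1*, so that the opposite order also occurred. Subpallial-like APs of the septal explants stood at 0.605, between the septal-like and hem-like values of that library. Those of the telencephalic vesicle stood at 0.312, close to its pallial-like value (0.268 to 0.342). The lowest values among neural classes were 0.182 in GABAergic-like neurons of the telencephalic vesicle (0.151 to 0.219) and 0.242 in pallial glutamatergic-like neurons of the septal explants (0.190 to 0.305). The *Zic4* of the latter neurons is not read as expression, as described below, and neither is their ratio.

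*Zic2* varied against *Zic1* over a wide range in the telencephalic vesicle. It gave 0.814 *Zic2* UMIs per *Zic1* UMI in pallial-like APs and 0.552 in BP-like cells, and 0.0566 in subpallial-like APs and 0.0694 in GABAergic-like neurons. Over the septal explants the same ratio stayed between 0.0337 and 0.0730 in all classes but the 26 erythroid-like cells. *Zic5* per *Zic2* UMI, the pair on chromosome 14, differed between neural classes of the telencephalic vesicle, from 0.824 in GABAergic-like neurons to 3.09 in APs without clear region.

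**Figure D2:**
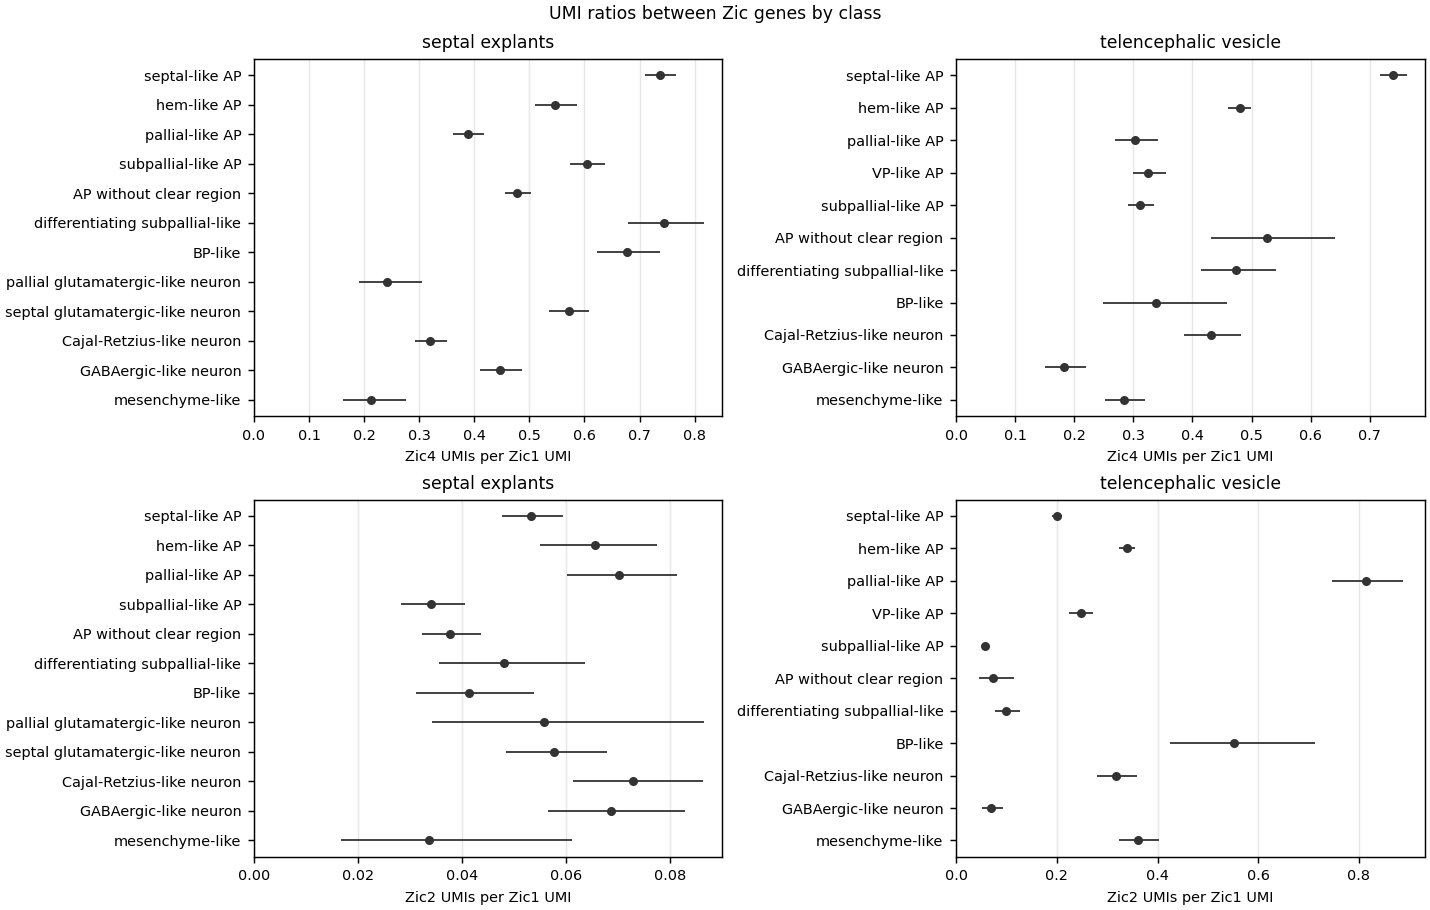
UMIs of *Zic4* (top) and *Zic2* (bottom) per UMI of *Zic1* in each class of the septal explants (left) and the telencephalic vesicle (right), with 95% intervals of counting error; the scales of the panels differ. *Zic4* per *Zic1* was 0.738 and 0.740 in septal-like APs against 0.389 and 0.303 in pallial-like APs, and *Zic2* per *Zic1* reached 0.814 in pallial-like APs of the telencephalic vesicle. The *Zic4* of pallial glutamatergic-like neurons of the septal explants is not read as expression.

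Neuron classes of the septal explants differed in their levels. Septal glutamatergic-like neurons, which carry *Slc17a6* and *Onecut* genes, gave the highest levels of the library with 876 CPM *Zic1* (260 cells, 842 to 910), 500 *Zic4*, 203 *Zic5* and 50.5 CPM *Zic2*. GABAergic-like neurons (223 cells) held 714 CPM *Zic1*, 319 *Zic4*, 144 *Zic5* and 49.1 CPM *Zic2*. The *Zic2* levels of these neurons could not be told apart (42.7 to 59.3 against 40.7 to 58.8 CPM). Cajal-Retzius-like neurons, early-born cells that secrete Reelin, held 402 CPM *Zic1*, 129 *Zic4*, 68.9 *Zic5* and 29.4 CPM *Zic2*. This class joined 208 cells led by *Trp73*, with 414 CPM *Zic1*, 179 *Zic4*, 92.7 *Zic5* and 31.7 CPM *Zic2*, and 182 cells of which only *Reln*, *Calb2* and *Nhlh2* counted as markers, with 391, 79.1, 45.3 and 27.0 CPM.

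Pallial glutamatergic-like neurons (142 cells, median 12485 UMIs) were at the low end, with 206 CPM *Zic1*, 49.9 *Zic4*, 15.9 *Zic5* and 11.52 CPM *Zic2*. After thinning, they held *Zic4* in 20.1% (13.7 to 27.9%) and *Zic5* in 8.21% of cells (4.17 to 14.2%), below the values of the erythroid-like reference, whose intervals (14.3 to 51.8% and 4.36 to 34.9%) overlapped both. A further reference was the unnamed group of 149 cells led by macrophage genes, at a median of 5379 UMIs, with 98.2 CPM *Zic1* (80.7 to 118), 39.3 *Zic4* (28.5 to 52.7), 3.57 *Zic5* (0.973 to 9.14) and 0.892 CPM *Zic2*. This group did not meet the naming rule for macrophage-like cells, so that its identity is not settled. Against these shallower cells the *Zic5* level of the pallial neurons (10.7 to 22.9 CPM) was higher and their *Zic4* level (40.2 to 61.3 CPM) overlapped. In 6 of 10 other clusterings and namings a class of this library was named macrophage-like. That class held 408 to 438 CPM *Zic1*, 88.9 to 93.2 *Zic4* and 34.1 to 36.0 CPM *Zic5*, all above the levels of the pallial neurons. The *Zic4* of the pallial neurons is therefore not read as expression, and the references differ for *Zic5*. The part of free RNA in these levels was not tested. Their thinned *Zic1* share of 59.7% (50.9 to 68.1%) lay above the erythroid-like value of 34.6%, whose interval of 17.2 to 55.7% overlapped it. Before thinning the shares were nearly the same, at 70.4% (62.2 to 77.8%) and 69.2% (48.2 to 85.7%), with the erythroid-like cells deeper. Whether the *Zic1* of the pallial neurons stands above free RNA is therefore not settled.

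Among the neurons of the telencephalic vesicle, *Zic1* gave 174 CPM in GABAergic-like neurons (541 cells, 162 to 187), with *Zic4* at 31.8, *Zic2* at 12.1 and *Zic5* at 9.96 CPM. The 242 cells that carried *Lhx6* and *Lhx8* gave 228 CPM *Zic1* and 4.08 CPM *Zic2*, and the 299 cells that carried *Isl1* and *Tac1* gave 138 and 17.6 CPM. The Cajal-Retzius-like class joined 477 cells led by *Trp73*, with 170 CPM *Zic1* and 96.6 CPM *Zic4*, and 735 cells led by *Calb2* that also carried *Barhl2*, a gene of another list, with 70.1 and 15.7 CPM. No cluster of this library was named septal or pallial glutamatergic. When the neurons were clustered again with scaled genes, 87 septal glutamatergic-like cells held *Zic1* at 418 CPM and 475 pallial glutamatergic-like cells at 31.6 CPM. Over the settings that gave these classes, the former ran from 256 to 456 CPM (3 of 10) and the latter from 31.6 to 96.9 CPM (6 of 10). BP-like cells (401) gave 40.4 CPM *Zic1*, 13.7 *Zic4*, 30.0 *Zic5* and 22.3 CPM *Zic2*. In the 9 of 10 other clusterings and namings with such a class, they gave 38.6 to 91.7 CPM *Zic1* and 13.7 to 56.5 CPM *Zic4*, and Cajal-Retzius-like neurons, found in 8 of 10, gave 79.8 to 295 CPM *Zic1*.

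Cells were also ordered from progenitor to neuron, by the log2 ratio of their UMIs of 11 neuronal to those of 9 AP genes, and cut into 10 equal bins. *Zic1* in the septal explants was 433 CPM in the first bin (418 to 448), lowest at 340 in the 3rd (328 to 353) and highest at 598 CPM in the last, most neuronal bin (579 to 618). *Zic2* rose late, from 18.7 CPM in the 8th bin to 41.5 in the last, and *Zic4* stayed between 188 and 261 CPM. For the telencephalic vesicle *Zic4* was 137 CPM in the first bin, 64.2 in the 3rd, again 135 in the 7th and 31.8 CPM in the last. *Zic5* was 118 CPM in the first bin and 19.3 in the last, and *Zic1* was 235 and 129 CPM. Bins mix regions, and which regions fill each bin was not held constant.

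**Figure D3:**
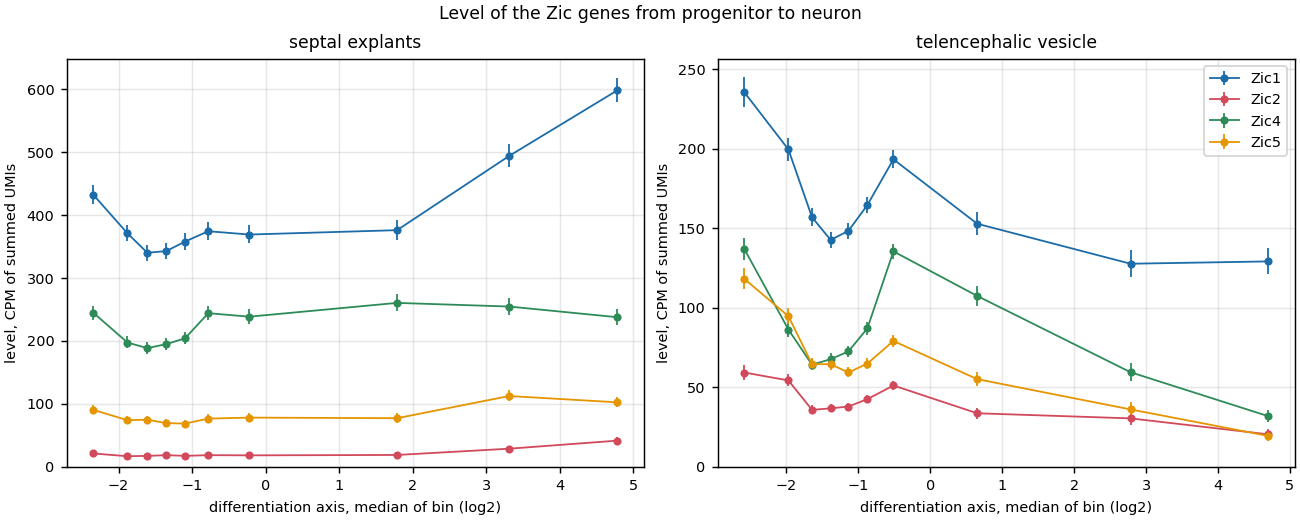
Level of each Zic gene (CPM of summed UMIs, with 95% Poisson intervals) in 10 bins of neural cells along the differentiation axis, the log2 ratio of neuronal to AP UMIs, in the septal explants (left) and the telencephalic vesicle (right). *Zic1* was highest in the most neuronal bin of the septal explants (598 CPM) and in the least neuronal bin of the telencephalic vesicle (235 CPM).

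Mesenchyme-like cells, which include the cells that form the meninges, carried Zic transcripts at a level near that of neural cells. The 492 mesenchyme-like cells of the telencephalic vesicle held 184 CPM *Zic1* (174 to 195), against 166 CPM in 9798 neural cells (164 to 168). The ratio of 1.11 (1.05 to 1.17) fell to 0.965 with doublets kept and to 0.946 with all barcodes, so that its direction was not fixed. *Zic2* gave 66.6 against 41.5 CPM (ratio 1.61), *Zic5* 58.8 against 68.0 (0.864) and *Zic4* 52.2 against 87.5 CPM (0.597). None of the 4 passed a fold of 2 in either direction, whereas 11.1% of 16351 genes were higher and 17.2% lower by that fold. *Zic4* per *Zic1* was 0.284 (0.252 to 0.319) in the mesenchyme-like cells and 0.526 in the neural cells.

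The 10 mesenchyme markers had served to name the mesenchyme-like cells of the telencephalic vesicle and are given only as a description, with a summed level of 2983 CPM against 55.7 CPM in neural cells. Of 20 AP and neuronal markers 18 were lower, with a summed level of 1855 against 5549 CPM, and none was at 0. *Sox2* gave 17.0 against 357 CPM and *Vim* 912 against 1312 CPM. The 2 that were higher, *Hes1* and *Gap43*, gave 109 against 68.8 and 84.2 against 64.3 CPM. The share with *Zic1* was 54.5% before and 34.4% after thinning to 3500 UMIs, against 3.75% and 2.52% in erythroid-like cells and 15.5% in 71 macrophage-like cells (median 17739 UMIs). Only 34 mesenchyme-like cells were found in the septal explants, with 626 CPM *Zic1* (560 to 698) against 399 in neural cells, and with *Zic4* at 133 against 223 CPM. Here too the 10 mesenchyme markers had named the cells (4982 against 37.7 CPM in sum), and 19 of 20 AP and neuronal markers were lower (2659 against 7422 CPM), with none at 0. *Zic4* per *Zic1* was 0.212 (0.161 to 0.275) and 0.560 in neural cells. In 6 of 10 other clusterings these cells formed no class of that name. A class named macrophage-like was found in 6 of 10, with 408 to 438 CPM *Zic1*, and whether it held these cells was not tested.

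Counted per cell, the 4 genes were often found together. Of the cells of the septal explants 4.85% held none of the 4, 12.8% held 1, 29.3% held 2, 38.9% held 3 and 14.1% held all 4. Among their 26 erythroid-like cells, the reference for free RNA, only 23.1% held none. Of the cells of the telencephalic vesicle 46.2% held none and 11.7% all 4. All 4 were found in 50.9% of its septal-like APs and 56.4% of its hem-like APs, against 11.05% of pallial-like, 5.54% of VP-like and 2.53% of subpallial-like APs, and in 10.98% of mesenchyme-like cells. Thinning to 3500 UMIs brought these shares to 4.87% and 8.34% in the septal-like and hem-like APs and to 0.119% and 0.100% in the VP-like and subpallial-like APs, and the cells with none rose from 0.885% to 9.24% in septal-like and from 28.2% to 64.9% in pallial-like APs. Joint detection of all 4 is therefore limited by depth.

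**Figure D4:**
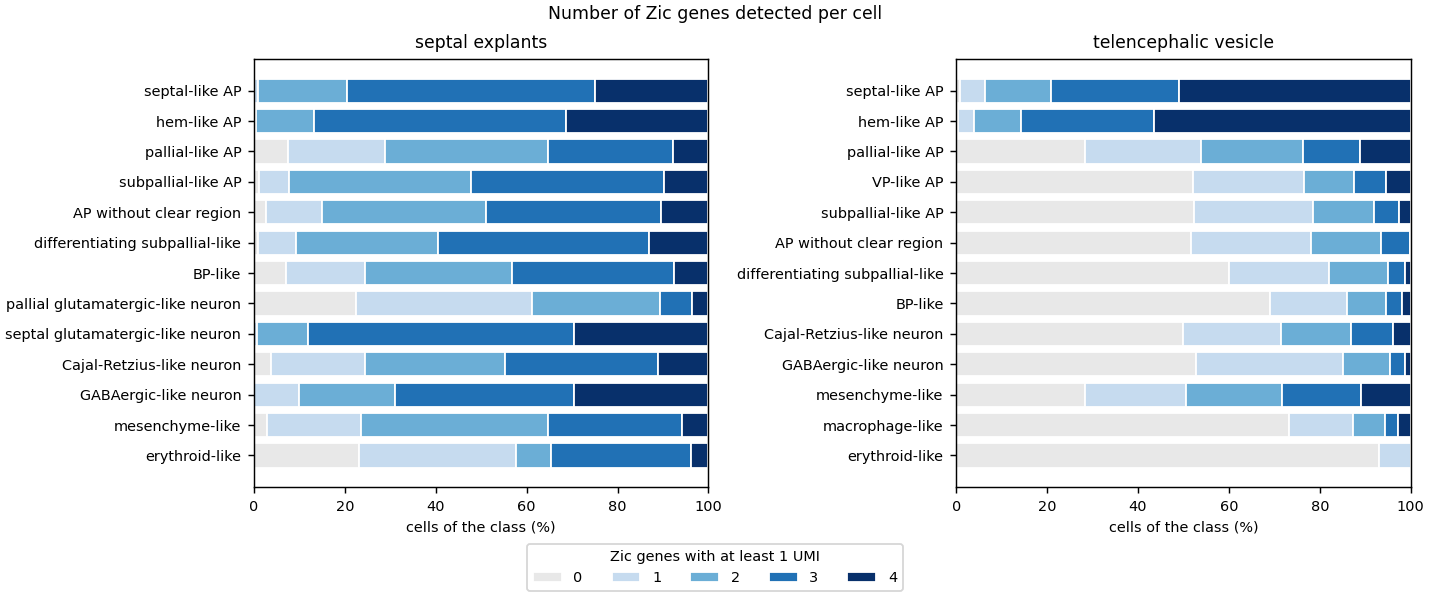
Share of cells (%) in each class in which 0, 1, 2, 3 or all 4 Zic genes had at least 1 UMI, in the septal explants (left) and the telencephalic vesicle (right), before thinning. The share with all 4 in the telencephalic vesicle was 50.9% in septal-like and 56.4% in hem-like APs, and 93.0% of erythroid-like cells held none.

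Joint detection was next set against the number expected from both shares within cells of like cluster and depth. In the telencephalic vesicle *Zic1* and *Zic4* were found together in 2775 cells, against 2260 expected (ratio 1.23, interval 1.18 to 1.27), and 87.8% of *Zic4* cells also held *Zic1*. *Zic2* and *Zic5* were found together in 1934 cells (ratio 1.12, 1.07 to 1.17). The other 4 pairs gave 1.12 to 1.14. The interval of *Zic1* with *Zic4* touched those of *Zic2* with *Zic4* (1.09 to 1.20) and *Zic4* with *Zic5* (1.09 to 1.19), and lay above those of the remaining 3 pairs. Without the cluster and depth terms the ratios were 2.06 and 2.47. The septal explants gave 1.03 for *Zic1* and *Zic4* (0.996 to 1.06) and 1.09 for *Zic2* and *Zic5* (1.02 to 1.16), where *Zic1* was present in nearly every cell and left little room for an excess.

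The ratio for *Zic1* and *Zic4* in the telencephalic vesicle differed between classes. It was computed only where enough cells of a class were observed to hold both genes, which leaves out classes with few such cells. Where few such cells are expected, this filter favours high ratios. It was 2.30 (1.89 to 2.78) in differentiating subpallial-like cells, 1.95 in GABAergic-like neurons, 1.68 in VP-like, 1.61 in both subpallial-like and pallial-like APs and 1.55 (1.28 to 1.85) in mesenchyme-like cells. In septal-like and hem-like APs, where 95.6% and 94.5% of cells held *Zic1*, it was 1.01 and 1.004. *Zic2* and *Zic5* gave 1.98 (1.54 to 2.52) in subpallial-like APs, 1.69 in Cajal-Retzius-like neurons and 1.30 in mesenchyme-like cells, but 1.02 (0.905 to 1.15) in pallial-like APs. An excess was not particular to the neighbouring genes. *Zic4* with *Zic5* gave 1.93 in subpallial-like APs. The same pair gave 2.68 (1.73 to 3.96) in differentiating subpallial-like cells, and *Zic1* with *Zic5* gave 2.03 in GABAergic-like neurons. These last values passed the filter only through their excess, with 9.33 and 12.8 joint cells expected, and nothing is read from them. Ratios of pairs that are not neighbours were below that of *Zic1* with *Zic4* in pallial-like (1.09 to 1.23 over the pairs) and VP-like APs (1.29 to 1.48). In VP-like APs the interval of *Zic1* with *Zic4* (1.46 to 1.92) overlapped those of all these pairs. In pallial-like APs its interval (1.35 to 1.90) overlapped that of *Zic2* with *Zic4* (1.03 to 1.47) and lay above the others. The part of differences between cells within a cluster, and that of the overlapping annotation of *Zic1* and *Zic4*, in these ratios was not tested.

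**Figure D5:**
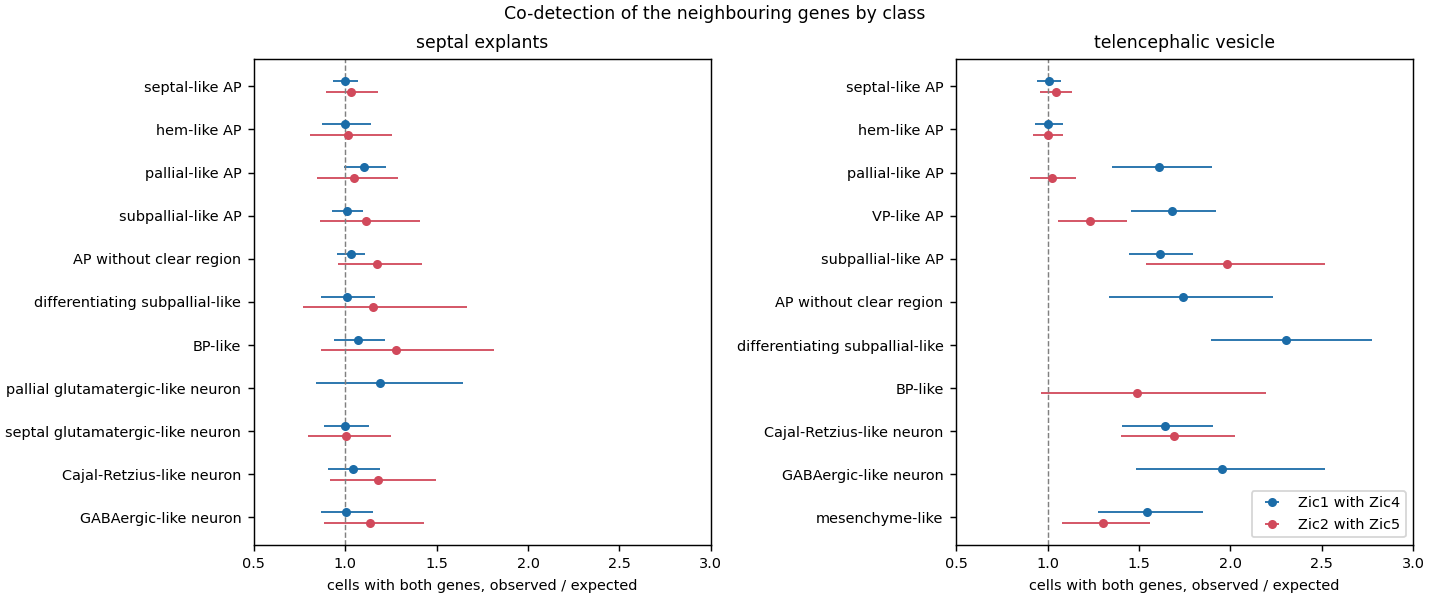
Observed over expected number of cells with both *Zic1* and *Zic4* (blue) or both *Zic2* and *Zic5* (red), by class. The septal explants are on the left and the telencephalic vesicle on the right, with 95% Poisson intervals, and the dashed line marks 1. Classes in which few cells were observed to hold both genes were left out, which favours high ratios, and the ranges cover only the classes shown. *Zic1* with *Zic4* gave 1.55 to 2.30 outside the septal-like and hem-like APs of the telencephalic vesicle and at most 1.19 in named classes of the septal explants.

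The reporters allowed the embryos of the septal explants to be compared in part. YFP cells (at least 3 eYFP UMIs, E11.5, 3061 cells) held 391 CPM *Zic1*, 21.0 *Zic2*, 213 *Zic4* and 77.9 CPM *Zic5*. Cells with any tdTomato UMI and no YFP UMI (taken as E12.5 Dbx1 lineage, 291 cells) held 428, 22.2, 264 and 94.8 CPM. In septal-like APs *Zic1* gave 519 CPM (503 to 536) in 496 YFP cells and 628 CPM (571 to 689) in 50 tdTomato cells, and *Zic4* 382 (368 to 396) and 459 CPM (411 to 512). In septal glutamatergic-like neurons *Zic4* gave 460 (429 to 492) and 604 CPM (531 to 685), in differentiating subpallial-like cells 315 (281 to 351) and 480 CPM (374 to 606), and in Cajal-Retzius-like neurons *Zic1* gave 377 (356 to 399) and 485 CPM (411 to 568). The order was the opposite for *Zic1* in pallial glutamatergic-like neurons, with 242 CPM (175 to 326) in 14 YFP cells and 103 CPM (68.7 to 149) in 19 tdTomato cells. In the other classes and genes compared the intervals overlapped, as for *Zic1* in septal glutamatergic-like neurons (863 and 839 CPM), subpallial-like APs (378 and 368) and pallial-like APs (210 and 208). All these intervals leave out the spread between cells, in groups as small as 14 cells, and many classes and genes were compared. Age, genotype, litter and lineage cannot be told apart in this comparison. eYFP UMIs were found in 69.9% of all kept cells. tdTomato had only 792 UMIs, in 403 kept cells, of which 291 held no eYFP UMI. The part of free RNA was not tested for either reporter, so that the lineage of single tdTomato cells is not certain.

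Genes with a pattern like that of each Zic gene were ranked by the Pearson correlation of log2(CPM + 1) over 28 clusters of the septal explants (10929 genes) and 23 clusters of the telencephalic vesicle (13844 genes). Clusters share library, depth and free RNA, and the values are a description. In the septal explants *Zic5* was the gene most like *Zic1* (r = 0.916), ahead of *Synj2bp* (0.898), and *Meg3*, a long noncoding RNA, reached 0.880. *Six3*, a homeobox gene of the rostral forebrain, was first for *Zic4* (0.915), ahead of *Zic1* (0.878), and *Otx2* reached 0.855. *Eif4g3* was first for *Zic2* (0.860) and *Pcgf2*, a Polycomb gene, for *Zic5* after *Zic1* (0.904).

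Over the clusters of the telencephalic vesicle *Zic4* was most like *Zic1* (r = 0.909), followed by the feedback inhibitors of Fgf signalling *Spry2* (0.7997), *Il17rd* (0.788) and *Spred3* (0.783). For *Zic4*, *Gm29478* (0.918) was ahead of *Zic1*, and *Gm28652* (0.890), *2610035F20Rik* (0.849), *Il17rd* (0.828) and *Spry2* (0.806) followed in that order. *Nfatc4* was first for *Zic2* (0.876), with *Zic5* at 0.790. For *Zic5* the leading genes were *Nxn* (0.889), *Tgif1* (0.879), which encodes a repressor of TGF-beta and Nodal signalling, and *Nkd1* (0.870), an inhibitor of Wnt signalling. The chromosomal neighbours *Zic2* and *Zic5* gave 0.856 in the septal explants and *Zic2* and *Zic4* 0.541.

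Lists of related genes (3) were read beside the Zic genes. Of the Gli and Glis genes with at least 50 UMIs, 3 of 5 were higher by a fold of 2 in septal-like than in pallial-like APs of the septal explants and 2 of 6 in the telencephalic vesicle, and none was lower. *Glis3* was among them in both (21.9 against 1.504 CPM, and 227 against 6.00 CPM), as was *Gli1*, a target of hedgehog signalling, at 4.67 against 0.0792 CPM and 4.99 against 1.78 CPM. The value of 0.0792 CPM lies below the 0.237 CPM that 3 UMIs give in that class, so that the size of this contrast is not read. *Gli3* gave ratios of 0.814 and 0.670. Over all genes tested, 7.86% were higher and 2.67% lower by this fold in the septal explants, and 7.42% and 1.97% in the telencephalic vesicle. The median log2 ratio of the list was 1.01 and 0.55, against 0.04 and 0.06 over all genes tested, and 1.35 and 2.17 for the 4 Zic genes.

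Of the holoprosencephaly genes, 4 of 9 were higher and 2 lower in septal-like than in pallial-like APs of the septal explants, and 3 of 9 higher and 1 lower in the telencephalic vesicle. Over all genes tested 7.86% were higher and 2.67% lower in the former and 7.42% and 1.97% in the latter, and the median log2 ratio of the list was 0.48 and 0.40. *Six3* gave 229 against 3.88 CPM and 185 against 9.04 CPM, and *Ptch1*, the hedgehog receptor, 19.4 against 2.37 and 80.7 against 29.4 CPM. *Cdon*, a hedgehog coreceptor, was lower at 10.5 against 43.0 and 86.6 against 175 CPM. *Tgif1* gave ratios of 0.913 and 0.869. *Fgf8*, the remaining gene higher in both, had served to name the septal-like cells. Nearly all of the telencephalic midline signal genes had served to name the septal-like or hem-like cells, and nothing is read from their counts of 5 of 8 and 4 of 10 in septal-like and 9 of 9 and 10 of 11 in hem-like APs.

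Against the hem-like APs the Gli and Glis genes gave 1 of 4 higher than in pallial-like APs in the septal explants and 2 of 6 in the telencephalic vesicle, *Glis3* in both, and the holoprosencephaly genes 3 of 8 and 2 of 10, where 4.54% and 9.42% of all genes tested were higher. The median log2 ratio of the holoprosencephaly genes was 0.65 and 0.10, against 0.06 and 0.07 over all genes, and that of the Gli and Glis genes 0.59 and 0.12. In mesenchyme-like cells of the telencephalic vesicle *Gli1* (16.3 against 4.02 CPM) and *Glis1* (20.9 against 3.17 CPM) were higher than in neural cells, and *Gli3* (178 against 572 CPM) and *Glis3* (8.56 against 65.6 CPM) lower. None of 10 holoprosencephaly genes was higher there and 3 were lower, among them *Six3* (6.68 against 111 CPM), and their median log2 ratio was 0.05 against -0.10 over all genes. Here 11.1% of all genes tested were higher and 17.2% lower, and nothing is read from the counts of these holoprosencephaly genes. Of the midline signal genes 2 of 12, *Bmp4* (54.0 against 19.1 CPM) and *Msx1* (253 against 8.05 CPM) were higher and 8 lower.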

How the data were processed

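The members and all lists were chosen with earlier results of these data known. The authors deposited raw counts, as UMIs per gene and barcode, made with Cell Ranger 2.1.1 on mm10 with YFP and tdTomato added (septal explants) and Cell Ranger 7.1.0 on mm10 (telencephalic vesicle) per the labels and the submitters' processing notes. Whether intronic reads were counted in the latter is not given in the sources used here. Input was 10000 and 20000 cells.

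Cells within 3 MAD of the median mitochondrial share were kept, and doublets removed with Scrublet in scanpy 1.11.5 (1.10% and 5.72%). Another Scrublet seed marked only 5 cells of the septal explants. Cells were clustered on 2000 variable genes, from which the Zic genes and 97 cell cycle genes were left out, with 30 principal components, 15 neighbours and Leiden (igraph 0.11.9) at resolution 1.5. A class needed 3 markers present in 5% of cells at 1.5 times the other clusters, and a region a z score of 0.5. In all, 6 configurations were run, with the Zic levels in view, before one was kept (genes not scaled, 2 Leiden iterations), a choice that the study's methods do not fix, and the naming rule was revised after clusters were seen. Clusters of subpallial type with a positive median on the differentiation axis were kept out of the APs and called differentiating subpallial-like.

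All 4 members were named by rule, as were the 5 most correlated genes per member and library (at least 200 UMIs, clusters of at least 50 cells) and the listed pathway genes. Expected joint detection used clusters crossed with 10 depth groups, which were cut over all kept cells of the library and not within each cluster. Thinning was to 8000 UMIs (511 cells left out) and 3500 UMIs (1145 left out), the largest multiple of 500 that 90% of cells reach. With 1 library per condition no test was made, and scripts were tested on simulated data. Statistics were computed with scipy 1.17.1 and numpy 2.4.6 in Python 3.11.15, and figures drawn with matplotlib 3.10.9.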

Additional observations from a re-analysis of the deposited data

Results flagged for a closer look

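The sequence named IRESCRE had 26 UMIs in 24 of 5384 cells of the septal explants (0.446%, interval 0.286 to 0.663%). The sequence named LacZ had 11 UMIs in 9 of 11758 cells of the telencephalic vesicle (0.0765%, interval 0.0350 to 0.145%), whose embryos are given as wild-type. Both are above the limit that a count of 0 allows and were used in no comparison.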

How the results depend on the processing

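No paired analysis was possible because each condition has 1 library. Of 165 values under alternatives 116 stayed within the counting interval of the value reported, 47 moved and 2 changed direction. The ratio of septal-like to pallial-like APs for *Zic1* stayed above 1 in all 17 alternatives of each library (1.83 to 2.65, and 4.91 to 10.4), and joint detection above 1 in all 20.

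For the septal explants this *Zic1* ratio was 1.83 with doublets kept, 2.01 with all barcodes, 2.28 with at least 1000 genes per cell, 2.41 at resolution 2.5, 2.42 with Zic genes and 2.37 with cell cycle genes among the variable genes. Settings added after seeing the data gave 2.33 (genes scaled, also with neurons clustered again), 2.36 (scaled, Leiden to convergence), 2.14 (Scrublet seed 1) and 1.86 (both seed 1 and scaled). For the telencephalic vesicle it was 7.42 as the mean of single-cell CPM, 10.2 with doublets kept, 7.59 with all barcodes, 9.69 at resolution 0.8, 4.91 at 2.5, 9.65 with another seed and 9.29 with Zic genes among the variable genes. Added settings gave 5.78 (scaled, also with neurons clustered again), 10.4 (Leiden to convergence), 5.99 (scaled, to convergence), 9.68 (seed 1), 6.33 (seed 1, scaled) and 5.58 (naming rule without later changes). The cause was not tested.

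The mesenchyme-like to neural *Zic1* ratio reversed to 0.965 with doublets kept and 0.946 with all barcodes, and was 1.18 as the mean of single-cell CPM and 1.19 in thinned cells. The share of cells with at least 1 Zic gene was 95.2% (septal explants) and 53.8% (telencephalic vesicle). It was 86.8% and 35.9% at 2 UMIs, 92.8% and 40.8% in thinned cells, and 93.9% and 51.3% with all barcodes. For the telencephalic vesicle it was 55.2% with doublets kept and 57.5% with at least 1000 genes.

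With the expected number over all cells, joint detection was 1.06 (*Zic1* with *Zic4*) and 1.30 (*Zic2* with *Zic5*) in the septal explants, and 2.06 and 2.47 for the same pairs in the telencephalic vesicle. In the latter it was 1.29 and 1.25 within clusters only and 1.29 and 1.20 in thinned cells, and for *Zic1* with *Zic4* 1.17 at resolution 2.5, 1.18 with another seed, 1.18 with Zic genes and 1.17 with cell cycle genes among the variable genes. Depth limits the detection of *Zic2* most, and with 1 library no value carries an error between embryos.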
